A study of Mus musculus with 3 samples.

Results

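Insulin and leptin signalling in hepatocytes was described through 10 genes named by symbol, Insr, Irs1, Irs2, Pik3r1, Akt2, Foxo1, Igfbp1, Igfbp2, Trib1 and Lepr, out of 32285 features in the gene lists of the libraries. All 10 were found and all 10 passed the minimum of 20 UMIs (unique molecular identifiers, which count captured RNA molecules). Single-nucleus RNA sequencing of frozen mouse liver gave 3 libraries, 1 per group, from C57BL/6 mice that were 8 weeks old at the start. The SD library came from a standard diet and received no treatment that the labels name. Mice of the MASLD library ate a diet that models metabolic dysfunction-associated steatotic liver disease (MASLD) for 18 weeks and drank a solution of D-glucose and fructose. Mice of the Aza-TdC library had this diet and drink for as long, and from week 14 to week 18 they were also gavaged daily with 2 mg/kg of Aza-TdC (5-aza-4′-thio-2′-deoxycytidine), a cytidine analogue that lowers DNA methyltransferase 1. The sources used here do not give the number of animals behind a library, or whether the other groups were gavaged with a vehicle.

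Insulin binds the insulin receptor at the hepatocyte surface, which phosphorylates the docking proteins IRS1 and IRS2, and these recruit phosphatidylinositol 3-kinase and so activate the kinase AKT2. AKT2 phosphorylates the transcription factor FOXO1 and keeps it out of the nucleus, so that genes FOXO1 activates in the fasted liver, such as Igfbp1 and Irs2, are repressed after a meal. The leptin receptor is a cytokine receptor that signals through JAK2 and STAT3. In liver its short forms and a soluble form that binds circulating leptin are well known.

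Among the promoters, a FOXO element was looked for because it is a known route from AKT2 to Igfbp1 and Irs2. In the RefSeq promoter table (build GRCm38.p6, 250 bases before to 50 after each start), 8 of the 10 genes matched, with 14 promoters. Insr and Trib1 did not match. CAAAACA, the core of the insulin response element of Igfbp1, was searched on both strands (TGTTTTG on the other). It was in 4 of the 14 promoters against 6.28% of all 32851 promoters in the table. GTAAACA, the other FOXO core, whose reverse complement is TGTTTAC, was in 0 of them against 3.65%. CACGTG, an E-box that SREBP can bind and that reads the same on both strands, was in 3 against 7.15%. CAAAACA was looked for because of Igfbp1 and Irs2, so the matches in these genes are no independent result. The 4 of 14 are therefore not read as more than the background. The 160 bases before the start of the 4 promoters with CAAAACA are shown 5′ to 3′ on the gene's strand, with CAAAACA or TGTTTTG and CACGTG in capitals. They lie at chr11:7197627-7197786 on the plus strand for Igfbp1, chr8:11008930-11009089 on the minus strand for Irs2, chr1:82291440-82291599 on the minus strand for Irs1 and chr4:101717746-101717905 on the plus strand for Lepr.
Igfbp1: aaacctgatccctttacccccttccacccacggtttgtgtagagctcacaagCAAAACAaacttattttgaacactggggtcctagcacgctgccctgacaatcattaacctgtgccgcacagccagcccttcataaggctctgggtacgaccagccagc
Irs2: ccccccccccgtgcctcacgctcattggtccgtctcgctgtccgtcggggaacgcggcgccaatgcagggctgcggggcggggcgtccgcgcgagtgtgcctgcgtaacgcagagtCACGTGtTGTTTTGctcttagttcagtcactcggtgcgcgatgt
Irs1: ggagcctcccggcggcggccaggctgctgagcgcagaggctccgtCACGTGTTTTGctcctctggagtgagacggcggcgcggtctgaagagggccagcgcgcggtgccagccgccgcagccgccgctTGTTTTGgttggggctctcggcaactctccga
Lepr: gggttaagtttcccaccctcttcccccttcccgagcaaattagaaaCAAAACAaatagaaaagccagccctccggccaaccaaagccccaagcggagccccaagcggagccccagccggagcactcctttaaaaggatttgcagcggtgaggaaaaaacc
In Igfbp1 the match begins 108 bases before the start. In Irs1 an E-box and a CAAAACA match share bases, and a second match begins 32 bases before the start. In Irs2 the E-box and the match lie 1 base apart. The Lepr match is in 1 of its 2 promoters in the table. These are matches of letters, with no measurement of binding, and the 4 genes did not share a pattern across the libraries, as the levels below show.

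The libraries held 7139 barcodes and 45162618 UMIs in SD, 6928 and 43569644 in MASLD, and 7598 and 51789068 in Aza-TdC. From 9 to 15 barcodes were shared between pairs of libraries. Summed over the hepatocyte-like nuclei of each library, all 20 hepatocyte markers had UMIs. This does not set the class apart, since these markers had UMIs in the other named classes too. Hepatocyte-like nuclei numbered 6857, 5965 and 6750 with a median of 5946, 6417 and 6786.5 UMIs in SD, MASLD and Aza-TdC. They separated by library: clusters 0, 1, 2, 3 and 5 held those of SD, clusters 16 to 19 most of those of MASLD and clusters 7, 8, 13 and 14 most of those of Aza-TdC, so levels of the class are compared across different clusters. The RNA in the nuclei also differed. A list of 15 transcripts that track nuclear and cytoplasmic RNA had a median log2 ratio of 0.93 in MASLD over SD and of -1.03 in Aza-TdC over MASLD. Their summed level went the other way, at 56648, 35578 and 45191 CPM in SD, MASLD and Aza-TdC. The median mitochondrial share was 0.124%, 0.188% and 0.0812%. The 7 erythroid markers summed to 38.3 CPM, 364 CPM and 59.7 CPM in hepatocyte-like nuclei of the 3 libraries, and the 13 macrophage markers to 6.43, 32.6 and 34.7 CPM. CPM means a gene's UMIs scaled to a class total of 1000000, and the part of these differences in the results was not tested.

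Between the MASLD and SD libraries, Insr, Irs2, Pik3r1, Akt2 and Foxo1 had log2 ratios between -0.23 and 0.12 in hepatocyte-like nuclei. Irs1 was lower in MASLD, at a log2 ratio of -0.40. Lepr, Trib1, Igfbp2 and Igfbp1 were 2.14, 1.91, 1.72 and 1.5 times as high in MASLD. Between the Aza-TdC and MASLD libraries, Igfbp1, Igfbp2 and Trib1 were lower in Aza-TdC and Lepr was higher again. Because each group is 1 library, no test between groups was possible. Intervals are 95% intervals for counting error and leave out the spread between animals. Each level rests on 1115 to 26900 UMIs. A gene was counted as apart at a difference of at least 2-fold.

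**Figure D1:**
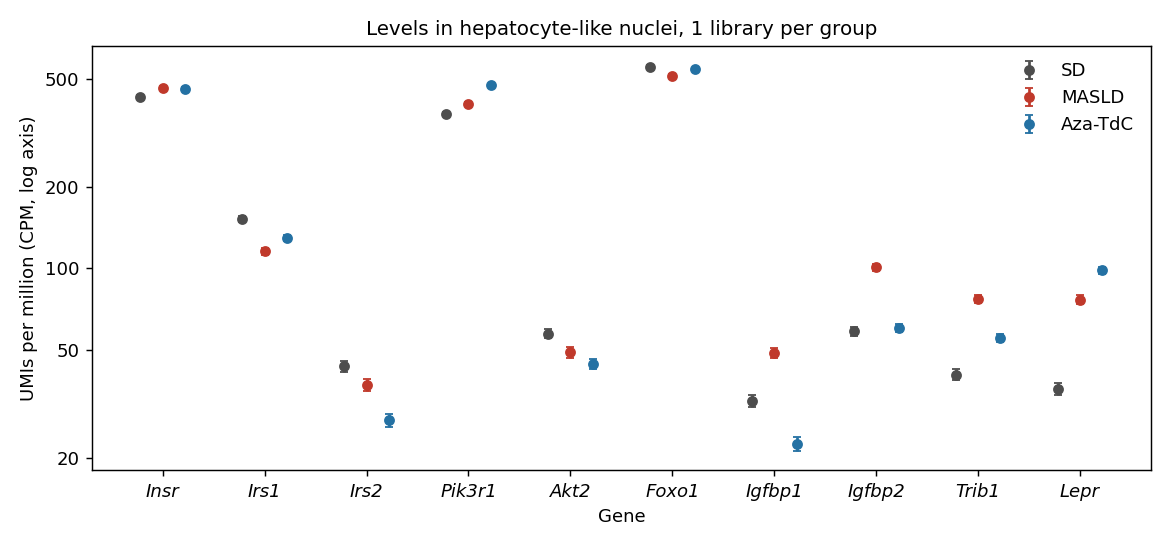
Level of each gene in hepatocyte-like nuclei (CPM on a log axis) in the SD, MASLD and Aza-TdC libraries, with bars for the 95% Poisson interval, which is narrower than most symbols. Lepr goes from 35.8 to 98.3 CPM across the libraries, while Insr and Foxo1 keep nearly the same level; levels of different genes are not per length and are not to be set against each other.

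Insr, the insulin receptor (ENSMUSG00000005534, chr8:3122061-3279617, minus strand), stood at 427 CPM (421 to 433) in SD, at 463 CPM (457 to 469.7) in MASLD and at 459.7 CPM (454 to 466) in Aza-TdC. The log2 ratio was 0.12 (0.09 to 0.15) in MASLD over SD and -0.01 (-0.04 to 0.02) in Aza-TdC over MASLD. The receptor's level thus differed by a fold of 1.08 between the diets, which is within the shift that scaling introduces, and it reads -0.01 under median-of-ratios scaling. Across the clusters of at least 50 nuclei, Insr ranged from 304 CPM in the MASLD nuclei of cluster 20 to 489.7 CPM in cluster 16.

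The docking proteins were both lower in MASLD. Irs1 (chr1:82233101-82291416, minus strand) was measured at 152 CPM (148 to 155) in SD, at 115 CPM (112 to 119) in MASLD and at 129 CPM (126 to 133) in Aza-TdC. It had a log2 ratio of -0.40 (-0.45 to -0.34) in MASLD over SD and of 0.17 (0.11 to 0.22) in Aza-TdC over MASLD, and stood lowest in MASLD. Irs2 (chr8:10984681-11008458, minus strand), itself a FOXO1 target, was measured at 43.4 CPM (41.5 to 45.4), 37.2 CPM (35.3 to 39.1) and 27.5 CPM (26.0 to 29.0) in SD, MASLD and Aza-TdC. Unlike Irs1 it was lowest in Aza-TdC, with a log2 ratio of -0.22 (-0.32 to -0.13) in MASLD over SD, -0.44 (-0.54 to -0.33) in Aza-TdC over MASLD and -0.66 (-0.76 to -0.56) in Aza-TdC over SD.

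Of the kinase step, Pik3r1 (chr13:101680563-101768217, minus strand), which encodes the p85 alpha regulatory subunit of phosphatidylinositol 3-kinase, was measured at 371 CPM (365 to 377) in SD, at 404 CPM (397 to 409.8) in MASLD and at 472 CPM (466 to 478) in Aza-TdC. Aza-TdC was the highest, with a log2 ratio of 0.23 (0.20 to 0.25) over MASLD and 0.35 (0.32 to 0.38) over SD. Akt2 (chr7:27591552-27640826, plus strand), the main AKT isoform of insulin action in liver, had 57.3 CPM (55.1 to 59.6), 48.9 CPM (46.8 to 51.1) and 44.5 CPM (42.6 to 46.3). SD was the highest, at a log2 ratio of -0.23 (-0.31 to -0.15) in MASLD over SD, and the Aza-TdC value lay below that of MASLD by a log2 ratio of -0.14 (-0.23 to -0.05). Foxo1 (chr3:52268336-52353221, plus strand) had 553 CPM (546 to 560.2), 513 CPM (506 to 519.5) and 543 CPM (536 to 549), with SD and Aza-TdC nearly level. The lower level in MASLD had a log2 ratio of -0.11 (-0.14 to -0.08). What is regulated in FOXO1 and AKT2 is mostly phosphorylation, which RNA counts do not measure.

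Igfbp1 and Igfbp2 encode secreted proteins that bind insulin-like growth factors. Igfbp1 (chr11:7197782-7202546, plus strand), repressed by insulin through FOXO1, was measured at 32.5 CPM (30.8 to 34.2) in SD, at 48.7 CPM (46.6 to 50.9) in MASLD and at 22.5 CPM (21.2 to 23.8) in Aza-TdC. MASLD stood highest and Aza-TdC lowest, below SD. The log2 ratio was 0.59 (0.49 to 0.69) in MASLD over SD, -1.12 (-1.22 to -1.01) in Aza-TdC over MASLD and -0.53 (-0.64 to -0.42) in Aza-TdC over SD. Igfbp2 (chr1:72824503-72852474, plus strand) was measured at 58.5 CPM (56.3 to 60.8), 101 CPM (97.7 to 104) and 60.1 CPM (58.0 to 62.3). Over all hepatocyte-like nuclei it was highest in MASLD, with a log2 ratio of 0.78 (0.71 to 0.85) over SD and of -0.74 (-0.81 to -0.68) in Aza-TdC over MASLD. The Aza-TdC and SD levels of Igfbp2 differed by a log2 ratio of 0.04 with an interval of -0.04 to 0.12.

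Trib1 (chr15:59648350-59657099, plus strand) encodes a pseudokinase that brings C/EBP alpha to the ubiquitin ligase COP1 and affects hepatic lipogenesis and plasma lipids. It was measured at 40.5 CPM (38.7 to 42.5) in SD, at 77.2 CPM (74.6 to 80.0) in MASLD and at 55.3 CPM (53.3 to 57.4) in Aza-TdC. The MASLD level was the highest and the Aza-TdC level lay between the others. The log2 ratio was 0.93 (0.85 to 1.01) in MASLD over SD, under the 2-fold line though the interval reaches it, and -0.48 (-0.56 to -0.41) in Aza-TdC over MASLD.

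Lepr (ENSMUSG00000057722, chr4:101717404-101815352, plus strand), the leptin receptor, was measured at 35.8 CPM (34 to 37.6) in SD, at 76.6 CPM (73.9 to 79.3) in MASLD and at 98.3 CPM (95.5 to 101) in Aza-TdC. The order differed from that of the IGF binding proteins and Trib1, since Aza-TdC was the highest. The log2 ratio was 1.10 (1.01 to 1.19) in MASLD over SD, 0.36 (0.29 to 0.42) in Aza-TdC over MASLD and 1.46 (1.38 to 1.54) in Aza-TdC over SD, a fold of 2.75. The UMIs are assigned to the gene as a whole, so long, short and soluble forms were not told apart. Leprot, a separate gene that also takes part in leptin receptor trafficking, had 9.52, 10.35 and 8.11 CPM in the same order.

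Counted at 2-fold, 1 of the 10 genes was apart between MASLD and SD, namely Lepr, where 18.7% of 15769 genes were (13.5% higher and 5.19% lower). Between Aza-TdC and MASLD it was 1 of 10, Igfbp1, against 8.37% of 15942 genes (3.11% higher and 5.26% lower), and between Aza-TdC and SD it was 1 of 10, Lepr, against 15.7% of 15874 genes (10.5% higher and 5.13% lower). These counts are near the background and say nothing particular about the 10 genes as a group. Their median log2 ratios were 0.12, -0.07 and 0.01, beside 0.15, -0.09 and 0.06 over all genes. The comparisons share libraries, MASLD and SD standing in both of their comparisons, so they are not independent.

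**Figure D2:**
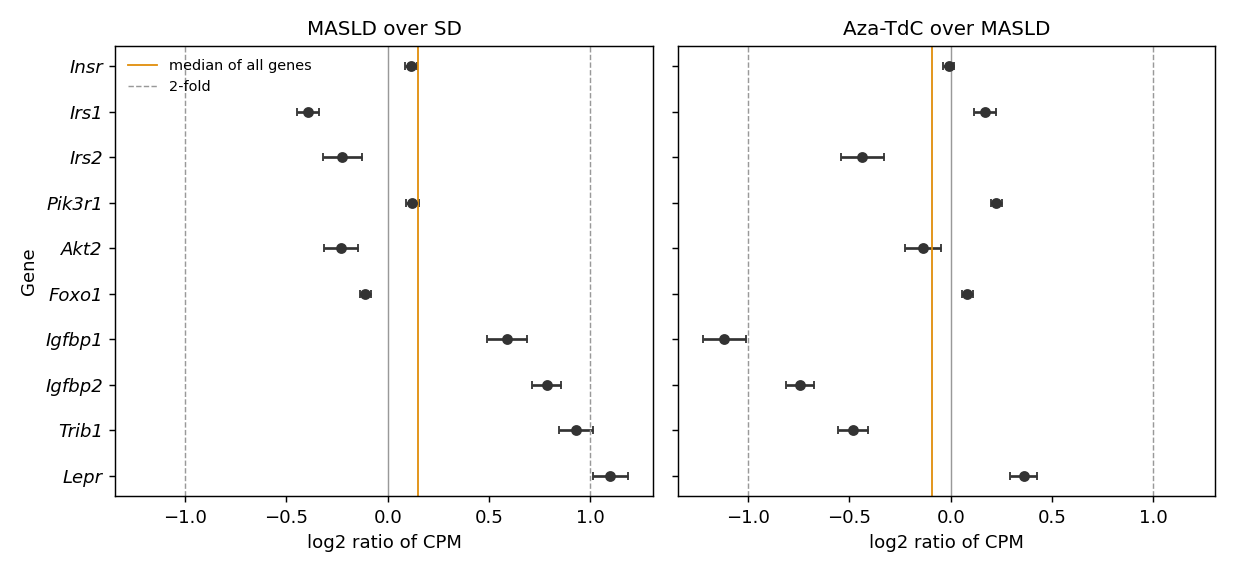
Log2 ratio of CPM in hepatocyte-like nuclei for MASLD over SD (left) and Aza-TdC over MASLD (right), with 95% intervals for counting error, dashed lines at 2-fold and a solid line at the median of all genes. Lepr at 1.10 lies past 2-fold on the left and Igfbp1 at -1.12 on the right; both panels use the MASLD library.

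Scaling bears on these ratios. The median-of-ratios factor is 0.12 on the log2 scale in MASLD over SD and -0.09 in Aza-TdC over MASLD, and is subtracted from every log2 ratio. After that, Lepr was at 0.98 in MASLD over SD, which ends the call, and Igfbp1 at -1.02 in Aza-TdC over MASLD, which does not. The higher share among genes 2-fold apart in Aza-TdC over MASLD went from 37.1% to 47.4%. Gene length also moved with the ratios. Genes under 10 kb, which include Igfbp1 at 4.77 kb and Trib1 at 8.75 kb, had a median log2 ratio of 0.29 in MASLD over SD and of -0.20 in Aza-TdC over MASLD. Genes of 10 to 30 kb had 0.13 and -0.11. They include Igfbp2 at 28.0 kb and Irs2 at 23.8 kb, of which Irs2 was lower in MASLD than in SD. Genes of 30 to 100 kb had 0.12 and -0.04. They include Lepr at 97.9 kb, Foxo1, Pik3r1, Irs1 and Akt2. Genes over 100 kb had 0.05 and -0.00, and the part of length in the results was not tested. In nuclei at or below a mitochondrial share of 0.0812%, the log2 ratios of MASLD over SD were 1.20 for Igfbp1, 0.55 for Igfbp2, 0.89 for Trib1 and 0.95 for Lepr. Those of Aza-TdC over MASLD were -1.64 for Igfbp1, -0.52 for Igfbp2, -0.46 for Trib1 and 0.60 for Lepr. The directions of these 4 genes were therefore the same in nuclei with little mitochondrial RNA, and for Igfbp1 the ratios were larger. In MASLD over SD, Igfbp1 and not Lepr was past 2-fold there. The cut is the Aza-TdC median, so it kept a smaller part of the SD and MASLD nuclei.

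Leptin receptor RNA was zonated. Hepatocytes differ along the lobule from the portal vein to the central vein, and the nuclei of each library were split into 5 equal bins by a score of 12 pericentral less 12 periportal genes. From bin 1, the most periportal, to bin 5, the most pericentral, Lepr had 48.5, 48.4, 37.6, 33.3 and 13.3 CPM in SD. The MASLD values were 123, 104, 65.9, 54.8 and 38.0 CPM, and those of Aza-TdC 127, 129, 119.7, 77.8 and 39.5 CPM. The last bin was the lowest in each library. The log2 ratio of bin 5 over bin 1 of Lepr, taken in SD, MASLD and Aza-TdC, was -1.86 (-2.16 to -1.57), -1.70 (-1.88 to -1.51) and -1.69 (-1.86 to -1.53), with overlapping intervals, while the level differed. Clusters 5, 19 and 8 had Slc1a2, a gene highest in bin 5 of each library, among their leading genes. In these clusters Lepr had 8.81 CPM in SD, 19.4 CPM in MASLD and 16.9 CPM in Aza-TdC.

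The MASLD over SD ratio of Lepr ranged from 0.72 to 1.51 over the bins, higher in MASLD in every bin. That of Aza-TdC over MASLD ranged from 0.05 in bin 1 to 0.86 in bin 3. A bin is set within its own library and does not mark the same place in each. In bin 3 the periportal gene Cyp2f2, which is part of the score, had 94.3 CPM in MASLD against 440 CPM in Aza-TdC, and the pericentral gene Cyp2e1 1543 and 283 CPM. Its part in the Lepr difference in bin 3 was not tested.

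Irs1 ran the other way, with the highest level in the pericentral bin of each library. It had 123, 141, 149, 165 and 177 CPM from bin 1 to bin 5 in SD, against 95.8 to 139.7 CPM in MASLD and 114 to 162 CPM in Aza-TdC. The log2 ratio of bin 5 over bin 1 was 0.52 (0.41 to 0.63), 0.54 (0.41 to 0.68) and 0.50 (0.39 to 0.61) in SD, MASLD and Aza-TdC. Irs2 did not share this slope, with -0.11 (-0.32 to 0.11), 0.19 (-0.04 to 0.43) and -0.01 (-0.25 to 0.24). Insr, Foxo1 and Pik3r1 were almost flat, with log2 ratios between -0.07 and 0.17 in the 3 libraries. Akt2 lay between -0.24 and -0.04.

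Igfbp2 had its highest level in the middle of the score in SD, where bins 1, 3 and 5 had 47.1, 81.1 and 43.7 CPM. In MASLD they had 104.7, 121 and 64.4 CPM, and the log2 ratio of bin 5 over bin 1 was -0.70 (-0.86 to -0.54), against -0.11 (-0.31 to 0.09) in SD and 0.10 (-0.07 to 0.28) in Aza-TdC. In Aza-TdC bin 4 was the highest, with 82.6 CPM, where SD had 61.1 CPM. By bin, the log2 ratio of Igfbp2 in Aza-TdC over SD ranged from -0.52 (-0.69 to -0.36) in bin 3 to 0.43 (0.28 to 0.59) in bin 4. Here too a bin does not mark the same place in each library. In bin 3, Cyp2f2 had 198 CPM in SD against 440 CPM in Aza-TdC, and Cyp2e1 641 and 283 CPM. The part of this in the Igfbp2 differences by bin was not tested. Igfbp1 was flat in MASLD at 47.5 to 50.1 CPM and in Aza-TdC at 20.2 to 24.4 CPM, and was lowest in the periportal bin in SD at 26.5 CPM against 33.4 CPM in the pericentral one. Trib1 was flat in SD, with a log2 ratio of -0.01 (-0.23 to 0.20), and lower at the pericentral end in MASLD at -0.33 (-0.50 to -0.17) and in Aza-TdC at -0.22 (-0.39 to -0.06). In every bin the MASLD library had the highest Igfbp1 and Trib1 of the 3.

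**Figure D3:**
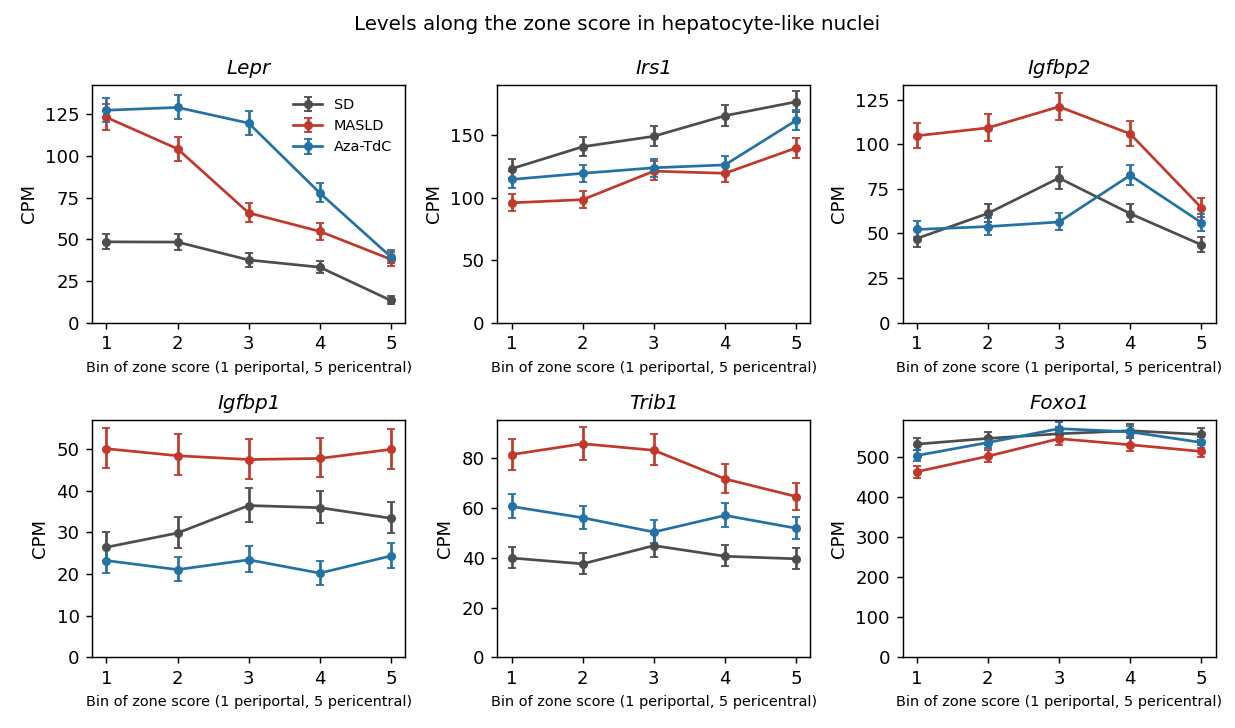
Level (CPM, linear axes from 0) of 6 genes along bins of the zone score, 1 periportal to 5 pericentral, in each library, with 95% Poisson intervals. Lepr declines and Irs1 climbs toward bin 5 in all 3 libraries, while MASLD is the highest of the 3 libraries for Igfbp1 and Trib1 in every bin.

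A small cluster had high Igfbp1 and Trib1 in its MASLD nuclei. Cluster 20, 60 MASLD and 87 Aza-TdC nuclei led by Aqp8, Angptl8, Fgf21 and Osgin1, had Igfbp1 at 316 CPM (274 to 362) in MASLD and 64.9 CPM (48.6 to 84.9) in Aza-TdC. Trib1 was at 206 CPM (173 to 244) and 121 CPM (98.6 to 148) there, and Igfbp2 at 178 CPM (147 to 213) and 94.3 CPM (74.4 to 118). The MASLD nuclei of cluster 20 also had the lowest Insr, 304 CPM, and the lowest Foxo1, 348 CPM, of the clusters with at least 50 nuclei of a library. Its Aza-TdC nuclei had 397 and 472 CPM. For Igfbp1 those nuclei did not lead their library, since the 54 Aza-TdC nuclei of cluster 18 had 76.1 CPM (47.7 to 115), with overlapping intervals. The 60 MASLD nuclei are 1.01% of the hepatocyte-like nuclei of that library and held 10.3% of its Igfbp1 UMIs, 4.27% of its Trib1 UMIs and 0.633% of its Lepr UMIs. Without cluster 20, Igfbp1 had a log2 ratio of 0.45 in MASLD over SD and of -1.03 in Aza-TdC over MASLD. The 10 genes were left out of clustering, and no test was made of the cluster against the rest.

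The larger clusters differed less for these genes. Igfbp1 was between 28.4 and 41.5 CPM in the SD clusters, between 37.5 and 66.4 CPM in MASLD clusters 16 to 19, and between 18.1 and 42.2 CPM in Aza-TdC clusters 7, 8, 13 and 14. For Trib1 the same clusters ran from 33.6 to 42.2 CPM in SD, from 43.4 to 56.0 CPM in Aza-TdC and from 63.3 to 80.1 CPM in MASLD. The MASLD values lay above the others. The interval of MASLD cluster 19 (53.4 to 74.6) still overlapped those of Aza-TdC clusters 7, 8, 13 and 14, as in cluster 13 (50.1 to 62.3). The intervals of SD cluster 1 (33.0 to 53.3) and Aza-TdC cluster 8 (34.2 to 54.2) overlapped too. Lepr spanned a wide range within each library, from 19.4 CPM in cluster 19 to 117 CPM (111 to 122) in cluster 18 among the MASLD clusters. In Aza-TdC it reached 131 CPM (127 to 135) in cluster 14, led by Cux2 and Pnpla3. Cluster 16 of MASLD, led by Cidea and with the T cell gene Themis and the hemoglobin genes Hba-a1 and Hba-a2 among its leading genes, had Lepr at 59.2 CPM and Igfbp2 at 115 CPM. Without cluster 16 the log2 ratio of MASLD over SD was 1.30 for Lepr and 0.79 for Igfbp1, and that of Aza-TdC over MASLD was 0.15 for Lepr and -1.32 for Igfbp1.

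**Figure D4:**
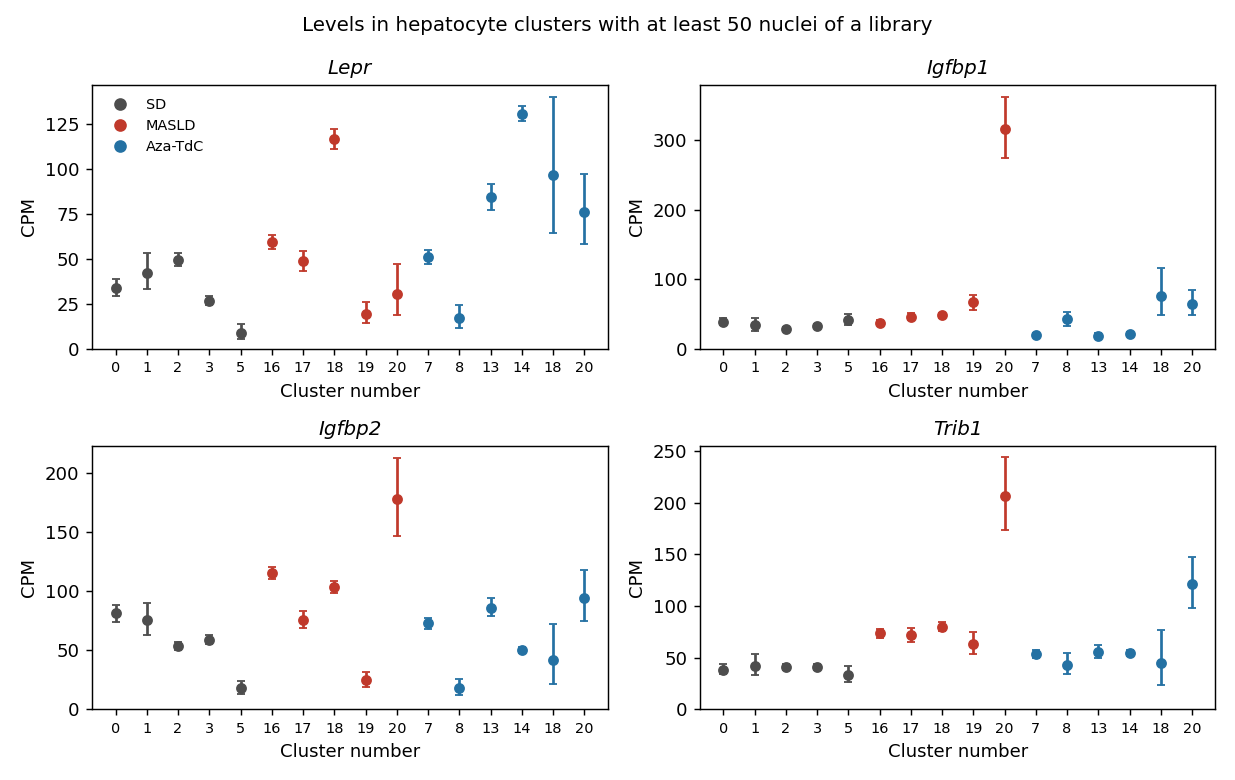
Level (CPM, linear axes from 0) of Lepr, Igfbp1, Igfbp2 and Trib1 in each hepatocyte cluster with at least 50 nuclei of a library, coloured by library, with 95% Poisson intervals. Cluster 20 of MASLD stands far above all others for Igfbp1 at 316 CPM, and clusters 5, 19 and 8 are low for Lepr and Igfbp2.

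Outside hepatocytes, most of the 10 genes could not be told from free RNA. In droplets, RNA of broken hepatocytes gives UMIs in all nuclei. The 20 hepatocyte markers had a median of 0.400 to 0.842 times their hepatocyte-like level in endothelial-like, stellate-like and macrophage-like nuclei, with 31 to 321 nuclei and median depths of 1592.5 to 2871 UMIs. Irs1, Irs2, Akt2, Foxo1, Igfbp1, Igfbp2 and Trib1 had ratios whose intervals reached into or below the range of these markers in each class and library, and are read as background. Insr, at 1.19 to 1.27 times the hepatocyte-like level in endothelial-like nuclei, was at the upper edge of that range.

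Lepr and Pik3r1 were above it in some of these classes. Lepr in endothelial-like nuclei had 82.8 CPM under SD and 151 CPM under MASLD, 2.31 (1.52 to 3.38) and 1.97 (1.55 to 2.48) times the hepatocyte-like level, where the highest marker stood at 1.18 and 1.42. In Aza-TdC the ratio was 1.36 (1.02 to 1.77) against 1.15. Between libraries the endothelial-like log2 ratio of Lepr was 0.87 (0.22 to 1.56) in MASLD over SD and -0.18 (-0.70 to 0.34) in Aza-TdC over MASLD, from 27, 75 and 56 UMIs. In stellate-like nuclei Lepr had 3, 9 and 2 UMIs, within or below the range of the hepatocyte markers. The 13 endothelial markers summed to 19.1, 23.1 and 14.9 CPM in hepatocyte-like nuclei of SD, MASLD and Aza-TdC.

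Pik3r1 was above its hepatocyte-like level in stellate-like nuclei, with 528, 614 and 756 CPM in SD, MASLD and Aza-TdC, which is 1.42, 1.52 and 1.60 times that level. In MASLD the highest hepatocyte marker reached 1.56. In macrophage-like nuclei it had 414, 569 and 882 CPM, or 1.12 (0.785 to 1.54), 1.41 (1.28 to 1.55) and 1.87 (1.75 to 1.99) times the hepatocyte-like level. The highest hepatocyte marker there stood at 1.56, 0.747 and 0.780, so the SD value is not told from free RNA. The log2 ratio there was 0.46 (-0.03 to 0.99) in MASLD over SD and 0.63 (0.47 to 0.80) in Aza-TdC over MASLD, from 37, 413 and 991 UMIs. The SD library had only 31 macrophage-like nuclei.

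**Figure D5:**
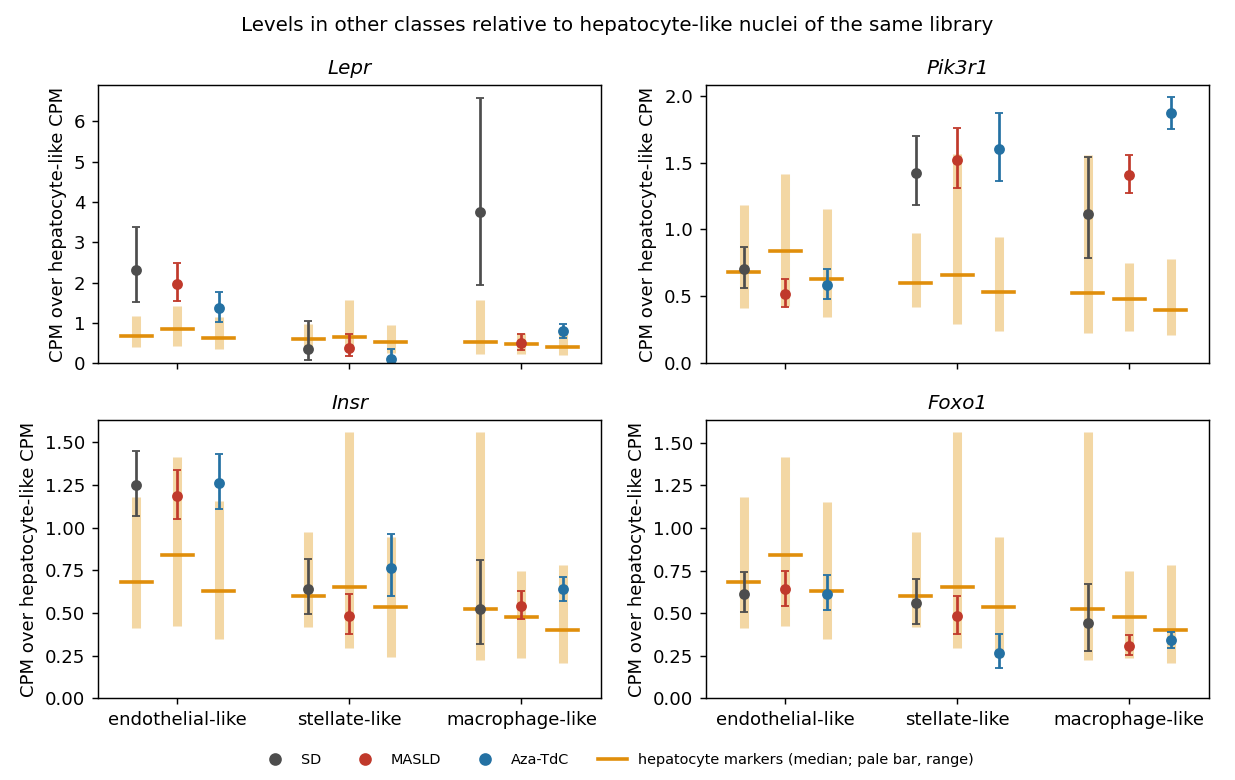
CPM in endothelial-like, stellate-like and macrophage-like nuclei divided by CPM in hepatocyte-like nuclei of the same library, for Lepr, Pik3r1, Insr and Foxo1, with 95% intervals; pale bars give the range and orange lines the median of 20 hepatocyte markers. Lepr in endothelial-like and Pik3r1 in stellate-like and macrophage-like nuclei lie mostly above the pale bars, and Foxo1 does not.

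The wider pathway was described by lists, counted at 2-fold in hepatocyte-like nuclei. The counts are to be read beside the 18.7%, 8.37% and 15.7% of all genes given above. Of 22 phosphatidylinositol 3-kinase, AKT and mTOR genes, 0 were apart in any of the 3 comparisons, with median log2 ratios of -0.02, 0.05 and 0.05 in MASLD over SD, Aza-TdC over MASLD and Aza-TdC over SD. Of 10 measured receptors and docking proteins, 1 was lower in MASLD than in SD and 0 were higher. It was Sh2b2, an adaptor of the insulin receptor, which went from 7.17 CPM to 2.28 CPM, a log2 ratio of -1.66 (-2.003 to -1.32). Of 17 measured negative regulators, 1 was higher and 0 lower, namely Trib3, a stress-induced pseudokinase, at a log2 ratio of 1.20 (0.93 to 1.47). Both lists had 0 genes apart in Aza-TdC over MASLD.

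FOXO factors and their targets were split. In MASLD over SD, 3 of 22 measured were higher and 2 lower, with a median of 0.20. Pdk4, the kinase that shuts pyruvate dehydrogenase in fasting, went from 2.37 CPM to 40.3 CPM, a log2 ratio of 4.09 (3.80 to 4.39), and the stress gene Gadd45a had 2.27 (1.88 to 2.69). G6pc, glucose-6-phosphatase, was lower at -1.39 (-1.42 to -1.37). So genes that FOXO1 is known to activate stood on both sides of SD. In Aza-TdC over MASLD 0 were higher and 3 lower, among them Igfbp1, and with median-of-ratios scaling only Igfbp1 of the 3 stayed past 2-fold. The others were Apoc3, an inhibitor of triglyceride clearance, at -1.08 (-1.11 to -1.05) and Txnip, an inhibitor of thioredoxin, at -1.003 (-1.05 to -0.95), which that scaling moves to -0.98 and -0.91. The same scaling moves the lower count of this list in MASLD over SD from 2 to 3.

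Insulin-induced lipogenic genes were split as well, with 5 of 17 higher and 4 lower in MASLD over SD and a median of -0.23. Scd1, stearoyl-CoA desaturase, went from 80.6 CPM to 904 CPM, a log2 ratio of 3.49 (3.44 to 3.54). Pnpla3, a lipid droplet protein, had 3.33 (3.09 to 3.58), and Elovl6, a fatty acid elongase, -2.52 (-2.56 to -2.48). In Aza-TdC over MASLD 1 was higher, Pnpla3 at 1.79 (1.71 to 1.88), and 1 lower, the glycolytic gene Pklr at -1.63 (-1.69 to -1.57).

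Around Lepr, 1 of 18 genes of the leptin receptor and JAK-STAT list was higher in MASLD over SD, which was Lepr itself, and 0 were lower, with a median of -0.06. Jak2 had a log2 ratio of 0.54 and Stat3 of -0.32 there, and Socs3, the feedback inhibitor that leptin induces, had 3.27 CPM in SD, 3.44 CPM in MASLD and 3.27 CPM in Aza-TdC. These 3 genes were picked after their values were seen. In Aza-TdC over MASLD 1 was lower, Cish, a feedback inhibitor of STAT5, at -1.08 (-1.28 to -0.88), and it was at -0.98 with median-of-ratios scaling. Cish had -1.82 (-2.01 to -1.64) in Aza-TdC over SD. In the IGF list, 3 of 11 measured were higher in MASLD over SD. They were Igfbp3 at 2.37 (1.36 to 3.51), Igfbp6 at 1.74 (0.99 to 2.54), both under 2 CPM, and Igf2r, the receptor that clears IGF2, at 1.14 (1.04 to 1.25). Igfbp1 and Igfbp7 were lower in Aza-TdC over MASLD, the latter at -1.10 (-1.46 to -0.74).

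In the Tribbles and COP1 list, which holds Trib1 itself, 3 of 6 measured genes were higher in MASLD over SD. The median of 0.97 includes Trib1's own log2 ratio of 0.93. Those 3 were Trib3, already counted among the negative regulators, Det1, a partner of COP1, at 1.79 (1.61 to 1.97), and Cebpa. Cebpa, whose protein TRIB1 sends to COP1, was at 1.01 (0.93 to 1.09). Cebpa went from 42.4 CPM in SD to 85.5 CPM in MASLD, and its log2 ratio was 0.89 with median-of-ratios scaling, under 2-fold. The 6 had 0 apart in Aza-TdC over MASLD, with a median of -0.30. Of 12 glucagon and AMPK genes, 1 was apart in MASLD over SD, the gluconeogenic enzyme Fbp1 at -1.12 (-1.15 to -1.10), and 0 in Aza-TdC over MASLD.

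The genes whose log2 levels most resembled each member over the 15 points of library and bin were taken from 10333 genes. Points of 1 library share that library and its depth, so these are descriptions. Lepr was closest to Frmd4b (Pearson's r = 0.97) and Sgce (r = 0.97). Frmd4b had 255, 469.5 and 512 CPM in SD, MASLD and Aza-TdC and encodes a scaffold protein that binds cytohesins. Igfbp1 was closest to Sqstm1, the autophagy receptor p62, at r = 0.98, with 139, 165 and 121 CPM, and to the proteasome subunit Psmd13 at r = 0.97. Trib1 was closest to Ttr, the plasma carrier transthyretin, at r = 0.97, with 739, 2462 and 1449 CPM, and to Esd at r = 0.97. Irs1 was closest to Pkdcc at r = 0.97 and Rnf217 at r = 0.96, Irs2 to Eif3j1 at r = 0.96 and Hspd1 at r = 0.95, and Pik3r1 to Lrp2bp at r = 0.97 and Dlg3 at r = 0.96. The other members had Akt2 with Eif4a3 and Bicral at r = 0.96 each, Insr with Smyd4 and Megf9 at r = 0.93 each, Igfbp2 with Acadvl at r = 0.90 and Luc7l at r = 0.88, and Foxo1 with Trmt1 at r = 0.89 and Eda at r = 0.86.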

How the data were processed

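Per the labels' protocols, nuclei from 120 mg of frozen liver were sorted and run with the 10x Genomics 3′ kit. The deposited matrices hold raw UMI counts, genes by nuclei, and the authors' counting tool was Cell Ranger 6.1.2 by the header of each file. The submitters' processing notes name Seurat 4.4.0, mm10 and GRCm38 with no role. The sources used here do not say how introns, free RNA or doublets were treated.

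The nuclei kept had 500 UMIs or more, 300 genes or more and no more than 5% mitochondrial UMIs (7139, 6726 and 7591 in SD, MASLD and Aza-TdC), and the filter left out 0, 202 and 7. They were clustered without integration in Python 3.11.15 with scanpy 1.11.5 and igraph 0.11.9, using scikit-learn 1.9.0 for 30 principal components of 3000 variable genes, 15 neighbours and resolution 1, which gave 21 clusters; sums and intervals used pandas 2.3.3, scipy 1.17.1 and numpy 2.4.6. The members and the pathway genes, 134 in all, were left out of clustering, and so were the mitochondrial genes. No doublet caller was used, and doublets remain. Clusters were named from markers of 11 classes, with a median log2 of at least 3 over 3 or more markers, and otherwise as hepatocyte-like. This rule was changed after clusters had been seen: its first form left cluster 16 without a name because of Themis and hemoglobin among its leading genes. Cluster 12, shallow, stayed unnamed and entered no class. Nuclei are not replicates, so UMIs were summed per library and class and scaled to CPM. Levels have exact Poisson and ratios exact conditional binomial 95% intervals, which cover counting error only; with 1 library per group there is no test. A gene was apart at a log2 ratio of at least 1 in size with at least 20 UMIs over both libraries.

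The members and lists were chosen with earlier results of these data known. Named besides the members were up to 3 genes per list and comparison past 2-fold, by the interval bound nearest 0, and the 2 genes most correlated with each member over log2(CPM + 1), among genes with at least 300 UMIs. Promoters came from RefSeq (GRCm38.p6) and gene coordinates from GENCODE M21 (GRCm38). In that annotation Foxo1 overlaps Gm38034 and Pik3r1 overlaps Gm36638 on the same strand, and Insr, Irs1, Irs2 and Foxo1 overlap genes on the opposite strand, so UMIs there are uncertain. The statistics were tried on simulated Poisson counts of MASLD and SD with 15596 genes, where 95.5% of intervals held the true ratio. Genes simulated at a log2 ratio of 1 passed the threshold in 49.5% of cases, those at 2 in 100% and unchanged ones in 0.779%. No spread between nuclei, animals or preparations was simulated. The intervals assume the same model, so these shares are not error rates of the real comparisons. Alternatives covered filters, resolution, scaling, thinning, mitochondrial share and clusters.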

Additional observations from a re-analysis of the deposited data

Results flagged for a closer look

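Lepr moved in opposite directions in macrophage-like and hepatocyte-like nuclei between MASLD and SD. The log2 ratio was -1.80 (-2.82 to -0.69) in macrophage-like nuclei and 1.10 (1.01 to 1.19) in hepatocyte-like nuclei. The macrophage-like levels were 134 CPM in SD, 38.6 CPM in MASLD and 77.4 CPM in Aza-TdC. The SD value rests on 12 UMIs in 31 nuclei, 3.75 (1.93 to 6.57) times the hepatocyte-like level, where hepatocyte markers reached 1.56. The MASLD value is 0.504 (0.334 to 0.729) times that level and lies within the range of the hepatocyte markers. With 1 library per group, the difference between the classes was not tested.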

How the results depend on the processing

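No paired analysis was possible because each group has 1 library. No alternative turned the direction of a gene past 2-fold. Lepr was past it in 12 of 14 alternatives in MASLD over SD (0.95 to 1.30) and in 14 of 14 in Aza-TdC over SD (1.39 to 1.55). Igfbp1 was past it in 13 of 14 in Aza-TdC over MASLD (-1.64 to -0.95). In MASLD over SD, Igfbp1 was past it in 1 of 14, the nuclei with little mitochondrial RNA, where Lepr was not. The number of members apart in MASLD over SD was 0 with median-of-ratios scaling, which by construction lowers all ratios by 0.12. In Aza-TdC over MASLD it was 0 with each nucleus thinned to 2000 UMIs, and the cause was not tested. With a minimum of 1 UMI over both libraries, the share of all genes apart was 33.9%, 25.5% and 31.2% in MASLD over SD, Aza-TdC over MASLD and Aza-TdC over SD, since sparse genes enter. Insr in MASLD over SD and in Aza-TdC over MASLD, Pik3r1 in MASLD over SD, and Foxo1 and Igfbp2 in Aza-TdC over SD had ratios near 0 whose sign depended on the setting. Leaving out cluster 16, cluster 20 or the most pericentral bin was added after the data were seen. Intervals leave out animals, so no ratio here tells diet or treatment from the animal or the preparation.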
